A study of Mus musculus with 6 samples.

Results

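Glucose sensing by the pancreatic β cell was examined through the RNA of 7 genes in islets isolated from diabetic db/db mice and from db/m controls. The genes were taken by symbol from the 44713 rows of the deposited count table. They code for the glucose transporter GLUT2 (Slc2a2), the islet glucose-6-phosphatase (G6pc2), the pore and the sulfonylurea receptor of the ATP-sensitive potassium (KATP) channel (Kcnj11 and Abcc8), the cation channel TRPM5 (Trpm5), and the L-type calcium channels Cav1.2 (Cacna1c) and Cav1.3 (Cacna1d). All 7 were present in the table, and all 7 passed the filter on low counts that left 12760 genes for testing.

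Libraries of rRNA-depleted total RNA represented 3 db/db and 3 db/m mice. All were males on a normal diet, 10 weeks old, whose islets were isolated with collagenase and a Histopaque density gradient. The labels give the db/db mice the genotype Lepr-/- and the db/m mice, their non-diabetic littermates, the genotype wild type. By name db/m mice are heterozygous for the db allele. The labels name the strain C57BL/6, whereas the methods of the study name the BKS background. The leptin receptor is absent from every tissue of the db/db mouse in its working long form, so that differences in the islet cannot be set apart from those of an obese and diabetic animal. Lepr counts were 4, 10 and 68 for db/db against 37, 25 and 8 for db/m. Counts over the whole gene do not part its isoforms and are no check of the genotype.

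In the β cell glucose enters through a facilitative transporter and is phosphorylated to glucose-6-phosphate, a step that G6PC2 reverses. The ATP made from it closes the KATP channel, which is built from the pore Kir6.2 and the receptor SUR1. The membrane then depolarizes, voltage-gated calcium channels open, and the incoming calcium triggers release of insulin. TRPM5 is opened by intracellular calcium and carries depolarizing current.

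The libraries held 15641797 to 20614531 gene counts each. The label of islet cells was checked against marker genes. Of the reads, 12 β-cell markers took 0.151%, 0.642% and 0.485% in db/db islets against 4.33%, 0.805% and 0.762% in db/m islets, so that every db/db library was lower (p = 0.1 by exact permutation). A further 12 pan-endocrine markers (granule proteins such as Chga and transcription factors such as Neurod1) took between 0.0208% and 0.555%. By contrast, 36 markers of acinar cells, which make digestive enzymes, took between 55.5% and 79.1% in every library. The acinar share was 79.1%, 73.5% and 73.5% in db/db islets against 55.5%, 70.4% and 71.5% in db/m islets. No db/m mouse reached the lowest db/db value (p = 0.1 by a two-sided exact permutation test, which is the lower limit for 3 mice per group). The pan-endocrine share was 0.0208%, 0.115% and 0.0756% in db/db islets against 0.555%, 0.167% and 0.0902% in db/m islets, which overlapped (p = 0.2 by exact permutation), with replicate 1 of db/m far above the other libraries. The part of these shares in the results was not tested beyond the values given with them, and fewer β cells cannot be told apart from less RNA per β cell.

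All 7 genes had lower levels in db/db islets than in db/m islets. In each of them the 3 db/db mice lay below the 3 db/m mice, against 12.6% of all tested genes. All 7 had an unadjusted p under 0.05 in the quasi-likelihood test of edgeR, against 9.89% of tested genes with such a p and a lower level. After Benjamini-Hochberg adjustment over all tested genes, Slc2a2 passed the threshold of 0.05, 1 of 7 genes, against 0.486% of tested genes that passed as lower. The median log2 fold change of the 7 genes was -2.35, and their values lay between -5.00 and -1.31, where the median of all tested genes was -0.00093. The 12 β-cell markers, all with negative log2 fold changes and 10 of them with an unadjusted p under 0.05, had the same median of -2.35. For the 7 genes the median was -0.98 with libraries scaled to pan-endocrine counts, -0.97 with a covariate for acinar markers and -0.89 with one for pan-endocrine markers. Trpm5 and Cacna1c reached the minimum of the filter, 0.605 counts per 1000000 of the library, in every db/m mouse but not in every db/db mouse, and so passed it through the db/m mice. Both genes are among the 7 counted above, and their p-values here and below are given as descriptions. The other 5 genes reached it in all 6 mice. Each of these 5 had an unadjusted p under 0.05 in the edgeR test and no overlap between the groups. Their median log2 fold change was -2.35. Expression levels are given as counts per 1000000 (CPM) of library sizes adjusted by the trimmed mean of M values (TMM). A count of 3, taken as the floor, corresponded to between 0.110 and 0.241 CPM.

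**Figure D1:**
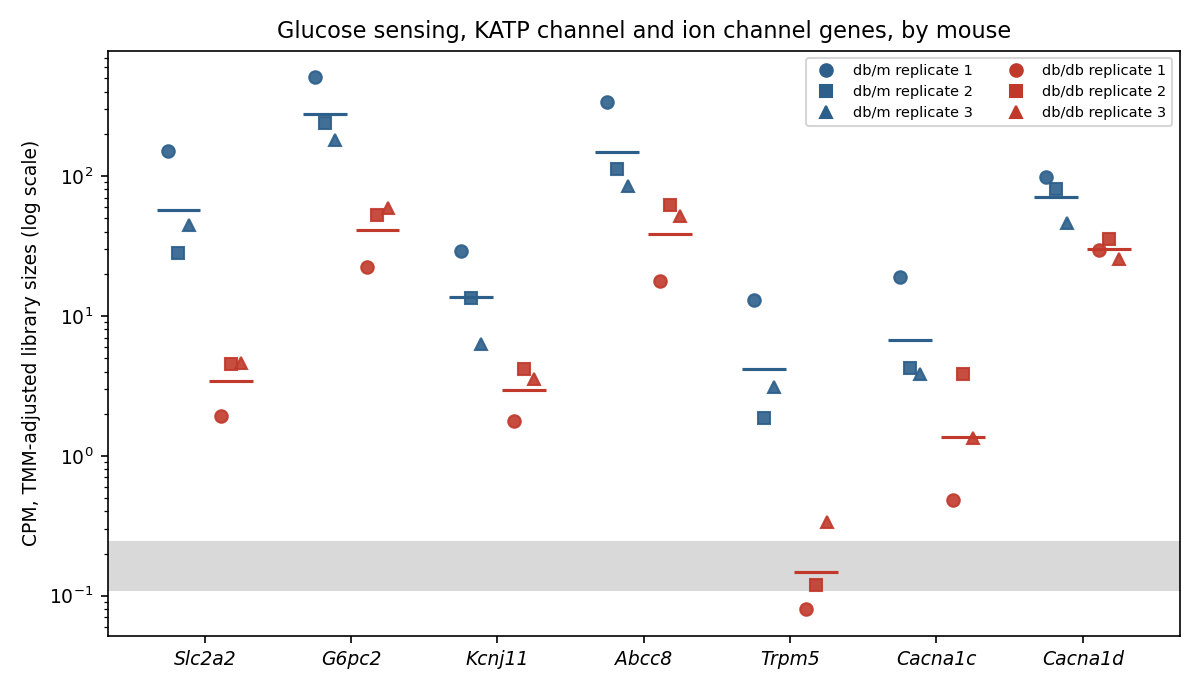
Expression of the 7 genes in each mouse, in CPM of TMM-adjusted library sizes on a log axis. Blue marks are db/m mice, red marks are db/db mice, the shape gives the replicate number, horizontal lines are geometric means of 3 mice, and the grey band spans the level of 3 counts in the 6 libraries. All db/db marks lie below all db/m marks of the same gene, with almost no gap for Cacna1c, and the db/db marks of Trpm5 lie near or below the band.

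The 3 genes with the lowest log2 fold changes were Trpm5, Slc2a2 and G6pc2, and the 250 bases before their annotated starts are given here so that they can be compared for short motifs of islet transcription factors. Of the 7 genes, 5 had an entry in the RefSeq promoter table of GRCm38.p6, and Kcnj11 and Abcc8 had none. Capitals mark E-boxes (CANNTG on either strand), the sites of basic helix-loop-helix factors such as NEUROD1.
Slc2a2, chr3:28697653-28697902, forward strand: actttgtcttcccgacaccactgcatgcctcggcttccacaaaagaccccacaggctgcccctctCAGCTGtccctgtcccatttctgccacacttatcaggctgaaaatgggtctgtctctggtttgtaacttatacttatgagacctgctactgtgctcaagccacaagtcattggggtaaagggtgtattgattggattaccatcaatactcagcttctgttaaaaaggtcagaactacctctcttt
G6pc2, chr2:69210823-69211072, forward strand: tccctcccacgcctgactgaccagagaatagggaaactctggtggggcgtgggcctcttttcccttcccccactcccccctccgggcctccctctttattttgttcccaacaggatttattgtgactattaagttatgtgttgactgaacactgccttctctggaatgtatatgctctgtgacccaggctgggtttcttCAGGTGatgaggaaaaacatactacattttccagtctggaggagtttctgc
Trpm5, chr7:143094643-143094892, reverse strand: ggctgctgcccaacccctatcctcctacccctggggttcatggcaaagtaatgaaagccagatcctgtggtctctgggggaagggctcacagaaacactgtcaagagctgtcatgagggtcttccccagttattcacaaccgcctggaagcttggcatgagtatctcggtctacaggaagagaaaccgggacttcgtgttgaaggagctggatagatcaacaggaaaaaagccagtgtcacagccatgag

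The window of Slc2a2 held 1 E-box, which began 185 bases before the start, and that of G6pc2 held 1, which began 51 bases before it. The window of Trpm5 held none. E-boxes were present in 66.2% of the 32851 promoter windows of this length. Each of the 3 windows held 1 homeodomain core (TAAT on either strand), the motif of factors such as PDX1 and NKX6-1, against 54.9% of all windows with at least 1. None of the 3 held the Maf half-site TGCTGA (16.1% of all windows) or the forkhead motif TGTTTAC (3.17%), both searched on either strand. A second annotated start of G6pc2 had 4 E-boxes, 3 homeodomain cores and 2 Maf half-sites in its window. These matches are descriptions of short letters that are common by themselves, and no binding was measured here.

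Slc2a2 codes for GLUT2, the main glucose transporter of the mouse β cell. It lies on the forward strand of chromosome 3 of GRCm38.p6 from 28697903 to 28728361. Its level was 1.93, 4.54 and 4.64 CPM in db/db islets against 152, 27.9 and 44.8 CPM in db/m islets. The lowest db/m mouse was 6.01-fold above the highest db/db mouse, the widest gap of the 7 genes. Slc2a2 fell 20.0-fold in db/db islets, a log2 fold change of -4.33 with a standard error (SE) of 0.67 (edgeR adjusted p = 0.0315). Its 95% interval was -5.85 to -2.80, and it had the 45th smallest p of all tested genes. The adjusted p rose to 0.137 without db/db replicate 2, and to 0.154 and 0.148 without db/db replicates 1 and 3. The call was lost in each of these fits.

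G6pc2 codes for the glucose-6-phosphatase catalytic subunit found almost only in islets, which returns glucose-6-phosphate to glucose. It lies on the forward strand of chromosome 2 from 69211073 to 69227993, and no other annotated gene overlaps it. Its level was 22.5, 52.7 and 59.4 CPM in db/db islets against 506, 237 and 180 CPM in db/m islets. The groups did not overlap, with a gap of 3.03-fold. The log2 fold change was -2.78 (SE 0.50), and the adjusted p of 0.0504 from edgeR narrowly missed the threshold. The edgeR adjusted p was 0.0292 without db/m replicate 3, and between 0.0641 and 0.179 without any other single mouse. G6pc2 was called in 3 of 16 alternatives.

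Kcnj11 and Abcc8 code for the subunits Kir6.2 and SUR1, which assemble into the KATP channel. The genes are neighbours on the reverse strand of chromosome 7, from 46097123 to 46100952 and from 46104523 to 46180039, with 3570 bases between them. Kcnj11 was at 1.77, 4.19 and 3.56 CPM in db/db islets against 29.0, 13.5 and 6.33 CPM in db/m islets. Abcc8 was at 17.7, 61.8 and 52.1 CPM in db/db islets against 335, 112 and 85.1 CPM in db/m islets. In both genes db/db replicate 1 was lowest and db/m replicate 1 highest, and the gaps between the groups were 1.51-fold and 1.38-fold. Log2 fold changes were -2.35 for Kcnj11 (SE 0.55, edgeR adjusted p = 0.0931) and -2.02 for Abcc8 (SE 0.60, edgeR adjusted p = 0.162). Without db/m replicate 1 the log2 fold change of Abcc8 was -1.15 and that of Kcnj11 was -1.61. Abcc8 shares exon sequence with Gm51481 on the other strand, and the sources used here do not state whether reads were counted by strand.

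Trpm5, on the reverse strand of chromosome 7 from 143071529 to 143094642, was the least abundant of the 7 genes in CPM. Its reads numbered 1, 2 and 5 in db/db islets against 351, 32 and 57 in db/m islets. Both lower db/db values lie under the floor of 3 counts. In CPM the db/db mice were at 0.0803, 0.120 and 0.336 and the db/m mice at 12.9, 1.86 and 3.09. The log2 fold change was -5.00 (SE 0.91, edgeR adjusted p = 0.0535), the lowest value of the 7 genes and the 20th lowest of all tested genes. Its 95% interval, which rests on very few db/db reads, was -7.04 to -2.95. Of its 50-base stretches, 2.57% are shared with Tssc4, which had 68, 143 and 89 counts for db/db against 603, 185 and 225 for db/m. Tssc4 was thus also lower in every db/db mouse, and its part in the counts of Trpm5 was not tested. Trpm5 is also a gene of tuft cells, and among 10 tuft cell markers Gnat3 and Il25 had no reads in any mouse. The 10 markers, Trpm5 included, summed to 1.53, 1.20 and 4.71 CPM in db/db mice and 17.4, 6.35 and 4.87 CPM in db/m mice. Trpm5 itself gave 12.9, 1.86 and 3.09 CPM of the db/m sums, so the sums are not independent of it. No sum without Trpm5 was taken, and the part of tuft cells in the result was not tested.

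The L-type calcium channel genes differed in level. Cacna1d, on the reverse strand of chromosome 14 from 30039941 to 30491156, was at 29.8, 35.3 and 25.4 CPM in db/db islets against 97.7, 80.5 and 45.9 CPM in db/m islets. This was the narrowest spread within db/db mice of the 7 genes, and the log2 fold change of -1.31 (SE 0.31, edgeR adjusted p = 0.0952) was the one nearest to 0. Cacna1d shares 4.18% of its 50-base stretches with Chdh, which overlaps it on the other strand. Chdh had 10, 23 and 15 counts for db/db against 16, 14 and 26 for db/m. Cacna1c, on the reverse strand of chromosome 6 from 118587240 to 119197384, was at 0.482, 3.83 and 1.34 CPM in db/db islets against 18.8, 4.25 and 3.84 CPM in db/m islets. The highest db/db mouse was at nearly the same level as the lowest db/m mouse, and the groups overlapped when CPM were taken from unadjusted library sizes, at 3.80 against 3.73 CPM. Its log2 fold change was -2.23 (SE 0.79, edgeR adjusted p = 0.236), and -1.05 without db/m replicate 1. As with Abcc8, exons of Cacna1c overlap those of a gene on the other strand, here Gm38887. Cacna1c is also expressed by smooth muscle. The sum of 9 smooth muscle and pericyte markers was between 6.18 and 18.7 CPM in db/db mice. It was between 6.17 and 21.7 CPM in db/m mice, which overlapped. The part of smooth muscle in the level of Cacna1c was not tested.

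To set genes side by side, levels were taken per kilobase of annotated exons, the union over RefSeq transcripts. The annotation used for counting is not given, and the order of genes depends on the lengths taken. The union was 2571 bases for Slc2a2 and 6473 for Abcc8, while their GENCODE transcripts held 5752 and 8415 different 50-base stretches. In db/m mice G6pc2 was highest at 143 ± 81.1 CPM per kilobase (SD, n = 3), above the next gene in every mouse. Slc2a2 at 29.1 ± 26.1 (SD, n = 3) and Abcc8 at 27.4 ± 21.2 (SD, n = 3) followed with overlapping ranges, then Kcnj11 at 4.73 ± 3.37 (SD, n = 3) and Cacna1d at 4.44 ± 1.57 (SD, n = 3), also overlapping. Trpm5 and Cacna1c were lowest, at 1.09 ± 1.11 and 0.507 ± 0.482 CPM per kilobase (SD, n = 3). In db/db mice G6pc2 remained highest at 20.9 ± 9.17 (SD, n = 3), followed by Abcc8 at 6.78 ± 3.57 (SD, n = 3). Slc2a2 stood at 1.44 ± 0.599 CPM per kilobase (SD, n = 3), in 4th place after Cacna1d at 1.79 ± 0.295 (SD, n = 3), and these ranges overlapped. With the RefSeq lengths Slc2a2 was higher than Abcc8 in 2 of 3 db/m mice, while Abcc8 was higher in all 3 db/db mice. The order of these 2 genes in db/m mice was thus in doubt, and other lengths could change it.

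The 7 genes varied together over the 6 mice. In db/m mice replicate 1 was the highest for all 7 genes, from 1.21-fold above the next db/m mouse for Cacna1d to 4.43-fold for Cacna1c. In db/db mice replicate 1 was the lowest for 6 of 7 genes, the exception being Cacna1d with replicate 3. Without db/m replicate 1 all 7 log2 fold changes stayed below 0, among them -3.25 for Slc2a2 (edgeR adjusted p = 0.0105), -2.20 for G6pc2, -3.69 for Trpm5 and -1.05 for Cacna1d. Across mice, the Pearson correlation of the log2 CPM of each gene with the mean of the others was between 0.902 (Cacna1d) and 0.985 (G6pc2), over 6 mice that share the difference between groups and the difference in endocrine share. The 5 genes whose log2 CPM followed the mean of the 7 genes most closely were Nek9, Ankfy1, Scrt1, Grin1 and Fbxl2. They were picked as the highest among 11551 genes with at least 1 CPM, with correlations between 0.995 and 0.998. Correlations picked in this way over 6 mice are high by selection and are given as a description. Of the 5 genes, Scrt1 codes for a neuronal and endocrine transcriptional repressor and Grin1 for the obligate subunit of NMDA receptors. Scrt1 was at 0.948 ± 0.519 CPM in db/db mice and 6.93 ± 6.12 CPM in db/m mice (SD, n = 3). Grin1 was at 2.21 ± 1.09 CPM in db/db mice and 12.7 ± 9.17 CPM in db/m mice (SD, n = 3). Nek9 followed the same order with a much smaller difference, with means of 23.0 CPM for db/db and 27.3 CPM for db/m.

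Because endocrine genes made up a small and unequal share of the libraries, the 7 genes were also set against the summed counts of the 12 pan-endocrine markers of the same library, none of which is among the 7. On this scale Slc2a2 had 5.59, 3.94 and 5.63 counts per 1000 marker counts in db/db islets against 47.6, 17.8 and 48.2 in db/m islets. G6pc2 had 65.2, 45.7 and 72.1 in db/db islets against 159, 151 and 194 in db/m islets. Trpm5 had 0.233, 0.104 and 0.408 in db/db islets against 4.04, 1.19 and 3.32 in db/m islets. These 3 genes were lower in all db/db mice, by 2.79, 1.48 and 3.55 on the log2 scale for Slc2a2, G6pc2 and Trpm5. The value of Trpm5 rests on 1, 2 and 5 db/db reads and is given as a description. With 0.5 counts added its log2 difference was -3.22. Both KATP channel genes were lower as well, with 5.13, 3.63 and 4.32 counts of Kcnj11 per 1000 marker counts in db/db mice and 9.10, 8.57 and 6.82 in db/m mice. For Abcc8 they were 51.5, 53.5 and 63.2 in db/db mice and 105, 71.6 and 91.6 in db/m mice. The log2 differences were -0.91 for Kcnj11 and -0.66 for Abcc8. The 2-sided exact permutation p was 0.1 for each of these 5 genes, the smallest possible, in 7 such comparisons. The share of all tested genes without overlap was not computed on this scale, so the number of such genes among the 7 has no background here. Cacna1c and Cacna1d overlapped between the groups. Cacna1c differed by -1.04 (exact permutation test, p = 0.2) and Cacna1d by 0.023 (exact permutation test, p = 0.9). Cacna1d had 86.4, 30.6 and 30.8 counts per 1000 marker counts in db/db islets against 30.6, 51.3 and 49.4 in db/m islets, and db/db replicate 1, the highest, was also the library with the fewest marker counts, 4292.

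**Figure D2:**
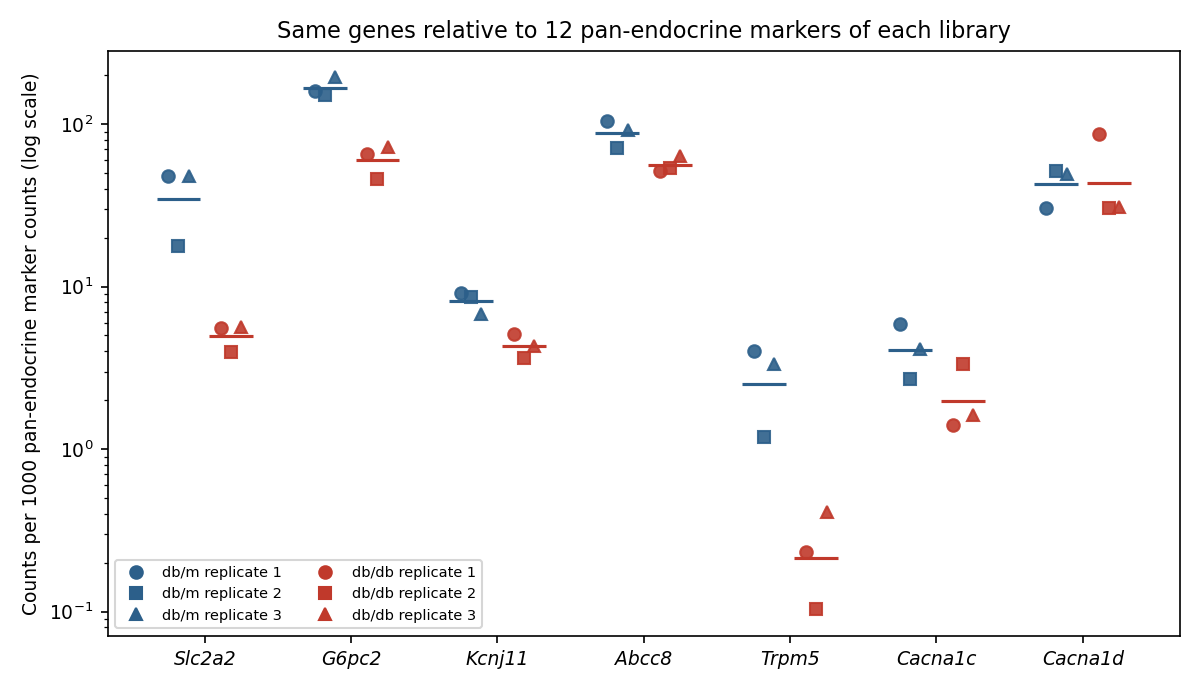
Counts of the 7 genes per 1000 counts of the 12 pan-endocrine markers in the same library, on a log axis, with marks as by mouse and replicate and lines at the geometric mean of 3 mice. Slc2a2, G6pc2, Kcnj11, Abcc8 and Trpm5 keep all db/db marks below all db/m marks, and the marks of Cacna1c and Cacna1d overlap. The db/m mice, which spread widely in CPM, lie closer together on this scale for each of the 7 genes.

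A narrower denominator was 9 β-cell markers without Ins1, Ins2 and Iapp, whose list had 5 of 12 genes lower at an adjusted p under 0.05 in db/db islets. Against these, Slc2a2 was lower in all db/db mice, with a log2 difference of -1.64 (exact permutation test, p = 0.1). The difference of Trpm5 was -2.41, which again rests on few db/db reads. The ranges of G6pc2 (-0.33), Kcnj11 (0.24), Abcc8 (0.49) and Cacna1c (0.10) overlapped between the groups. Cacna1d was higher in all db/db mice, by 1.17 on the log2 scale (exact permutation test, p = 0.1). The direction for Kcnj11, Abcc8 and Cacna1c therefore depended on which endocrine genes they were set against.

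When edgeR was run with libraries scaled to the pan-endocrine counts, the median of all tested genes moved to 1.27 on the log2 scale. In this fit Slc2a2 did not pass the threshold (-2.91, adjusted p = 0.124 from edgeR). Trpm5 was at -3.55 (adjusted p = 0.0318 from edgeR), a value that rests on 1, 2 and 5 db/db reads and is given as a description. In all, 2 of 7 genes had an unadjusted p under 0.05. Relative to the median of all genes, the 7 genes lay at a median of -2.24, against -2.35 with TMM. Cacna1d, at 0.17 in this fit, was the only one of the 7 with a value above 0. It lay 1.10 below the median of all genes. Taking off that median largely undoes the scaling, so values relative to it do not account for the endocrine share. With a covariate for acinar markers Slc2a2 kept its call (-2.81, adjusted p = 0.0186 from edgeR), and with one for pan-endocrine markers it lost it (-3.07, adjusted p = 0.0733 from edgeR). With the acinar covariate the log2 fold changes of Abcc8 and Cacna1c shrank to -0.50 and -0.34.

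**Figure D3:**
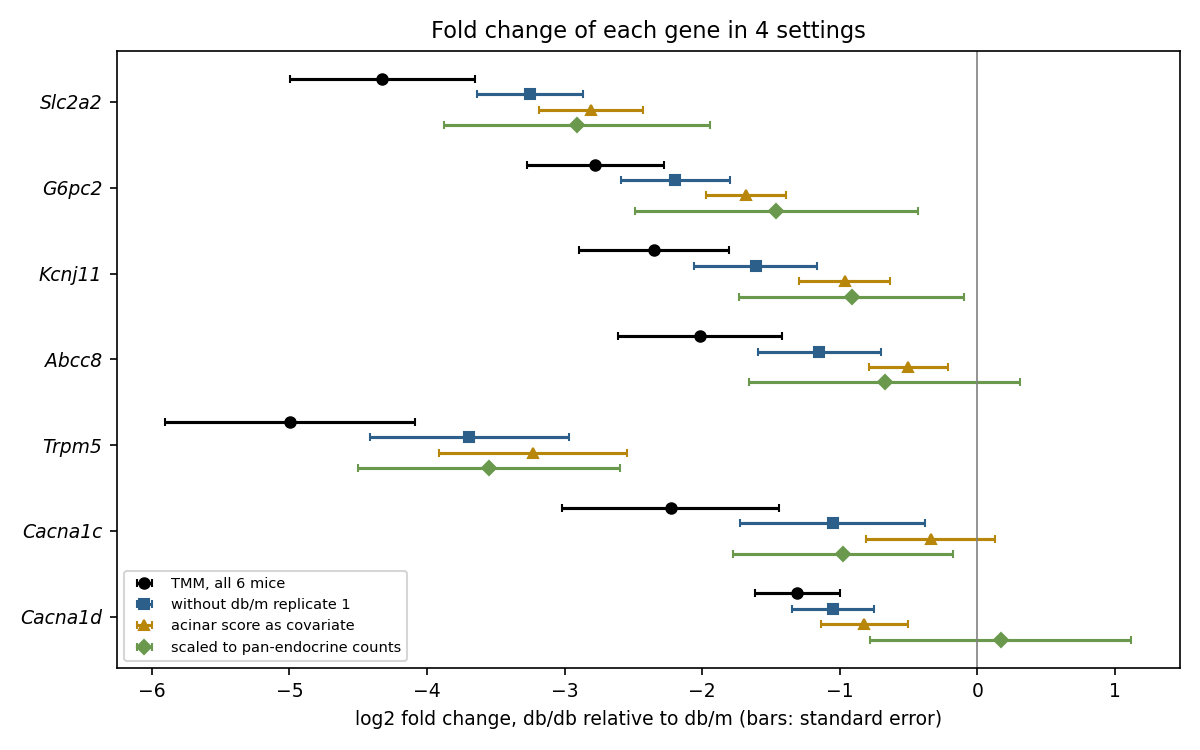
Log2 fold change of each gene in db/db relative to db/m islets in 4 settings, with bars of 1 standard error. All values are below 0 except that of Cacna1d with libraries scaled to pan-endocrine counts (0.17), and Slc2a2 stays below -2.8 in all 4 settings.

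Ratios between genes of 1 library do not depend on scaling, and 3 ratios are given here. The ratio of Kcnj11 to Abcc8 counts, the subunits of 1 channel, was 0.0995, 0.0678 and 0.0684 in db/db islets against 0.0866, 0.120 and 0.0744 in db/m islets. These ranges overlapped, with a log2 difference of -0.25 (p = 0.5 by exact permutation, also 0.5 after adjustment over 5 ratios compared). For the calcium channels, the ratio of Cacna1d to Cacna1c was between 9.23 and 61.8 in db/db mice and between 5.19 and 18.9 in db/m mice, a log2 difference of 1.07 (exact permutation test, p = 0.5). Cacna1d was the more abundant in every mouse. The third ratio set Slc2a2 against another glucose transporter. Slc2a2 was 4.80, 3.62 and 3.63 times as abundant as Slc2a1, the widely expressed transporter GLUT1, in db/db islets against 89.9, 12.3 and 28.5 times in db/m islets. All db/db mice lay below all db/m mice, with a log2 difference of -2.99. The exact permutation p was 0.1, the smallest possible, and 0.167 after adjustment over the 5 ratios. Slc2a1 had only 5, 21 and 19 counts in db/db mice and 46, 39 and 29 in db/m mice. Because Slc2a1 is not confined to β cells, the ratio also depends on the mix of cells, and the part of that mix was not tested.

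**Figure D4:**
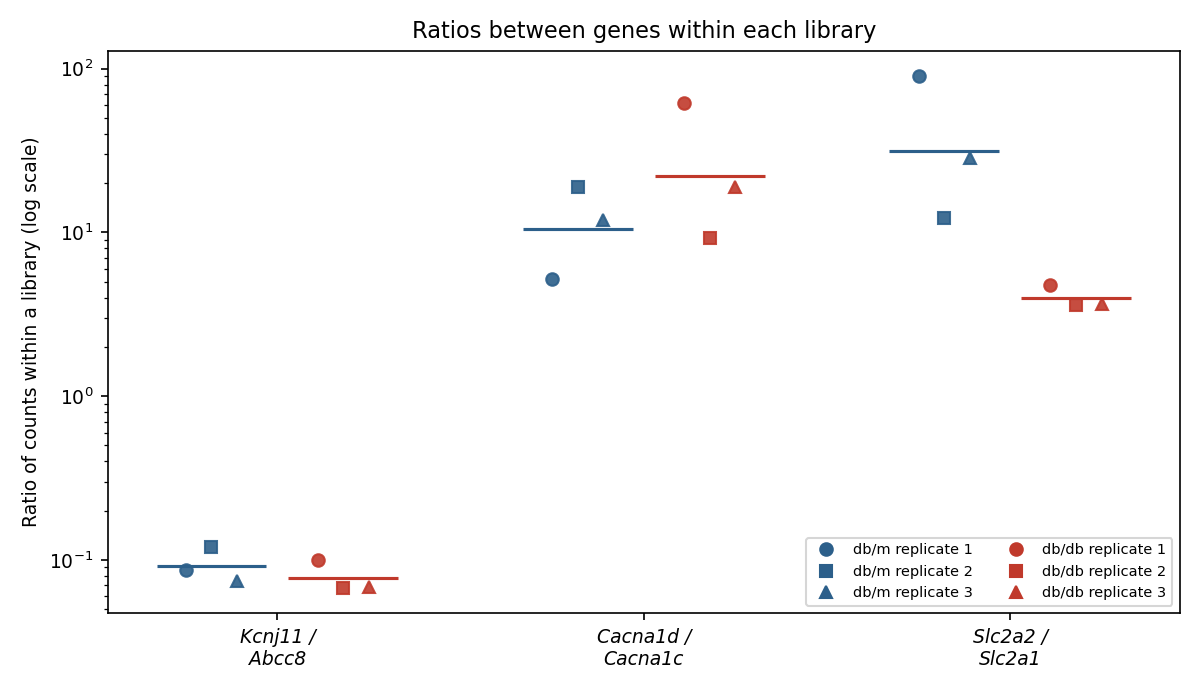
Ratios of counts of 2 genes within each library, on a log axis, by mouse and replicate, with lines at the geometric mean of 3 mice. The ratios of Kcnj11 to Abcc8 and of Cacna1d to Cacna1c overlap between the groups, and the ratio of Slc2a2 to Slc2a1 is lower in all db/db mice.

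The other genes of the way from glucose to calcium were taken from 10 lists of 225 genes, of which 224 were in the table and 143 were tested. Of these, 2 were lower and 1 was higher at an adjusted p under 0.05, against 0.486% and 0.133% of all tested genes. At an unadjusted p under 0.05, 31 were lower and 13 higher, against 9.89% and 5.04%. The median log2 fold change of the 143 genes was -0.20.

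For sugar entry, Slc2a1 had a log2 fold change of -0.89 (SE 0.54, edgeR adjusted p = 0.475). Among 8 tested hexose transporters, Slc2a5, a fructose transporter, had a log2 fold change of -1.55, and Slc2a8 and Slc2a10 had values of 0.73 and 1.16, with adjusted p between 0.177 and 0.329 from edgeR. Of 22 glycolysis genes, 4 were lower and 2 higher at an unadjusted p under 0.05. Pfkfb2, which makes the activator of phosphofructokinase, was at 24.2 CPM in db/db and 64.8 CPM in db/m mice (log2 fold change -1.42, SE 0.26, edgeR adjusted p = 0.0569). Eno2, the neuronal and endocrine enolase, and Gapdh had log2 fold changes of -2.02 and -1.77. Gapdh has many near-identical pseudogenes, and its counts are uncertain. The 29 genes of mitochondrial coupling had a median of 0.16, with 2 lower and 2 higher at an unadjusted p under 0.05. Pck2, the mitochondrial enzyme that makes phosphoenolpyruvate, had a log2 fold change of 1.05, Slc25a13, an aspartate and glutamate carrier, of 0.82, and Slc25a4, an ADP/ATP carrier, of -1.53.

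Among channels, the other KATP family members were scarce. Kcnj8 and Abcc9, which code for the vascular subunits Kir6.1 and SUR2, averaged 0.188 and 0.555 CPM in db/db mice and 0.216 and 0.680 CPM in db/m mice. Kcnj12, an inward rectifier, had 236, 98 and 70 counts in the db/m mice and 0, 1 and 0 counts in the db/db mice (adjusted p = 0.00449 from edgeR). Its db/db counts lie under the floor of 3, so it passed the filter through the db/m mice. The p-value is therefore given as a description. Of the 21 tested genes for other potassium channels, 7 were lower and 3 higher at an unadjusted p under 0.05. Scn4b, a β subunit of sodium channels, was the gene that rose, from 7.05 to 30.0 CPM on average (log2 fold change 2.09, adjusted p = 0.0497 from edgeR). This call was kept in 3 of 16 alternatives, and the edgeR adjusted p was 0.0504 with at least 10 counts in at least 3 mice and 0.0510 without the most abundant genes. Kcnj12 was called in all 16, with the same limit of almost no db/db counts. Of the 14 tested sodium and anion channel genes, 5 were lower and 2 higher at an unadjusted p under 0.05. Among the other calcium channel subunits all 6 tested genes had negative log2 fold changes, and 3 had an unadjusted p under 0.05. These were Cacna1a and Cacna1b, the pores of P/Q-type and N-type channels, and Cacna2d1, an auxiliary subunit, at -2.11, -2.13 and -1.58, with adjusted p between 0.117 and 0.168 from edgeR. Of 8 tested TRP channels, Trpc1 had a log2 fold change of -1.87 and Trpm4, the closest relative of Trpm5, of 0.90, with adjusted p of 0.0924 and 0.324 from edgeR. Of 21 genes of intracellular calcium handling, 6 were lower and 1 higher at an unadjusted p under 0.05, among them Atp2a3, the calcium pump SERCA3, at -2.34, and the plasma membrane pumps Atp2b2 at -2.11 and Atp2b4 at -1.76.

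**Figure D5:**
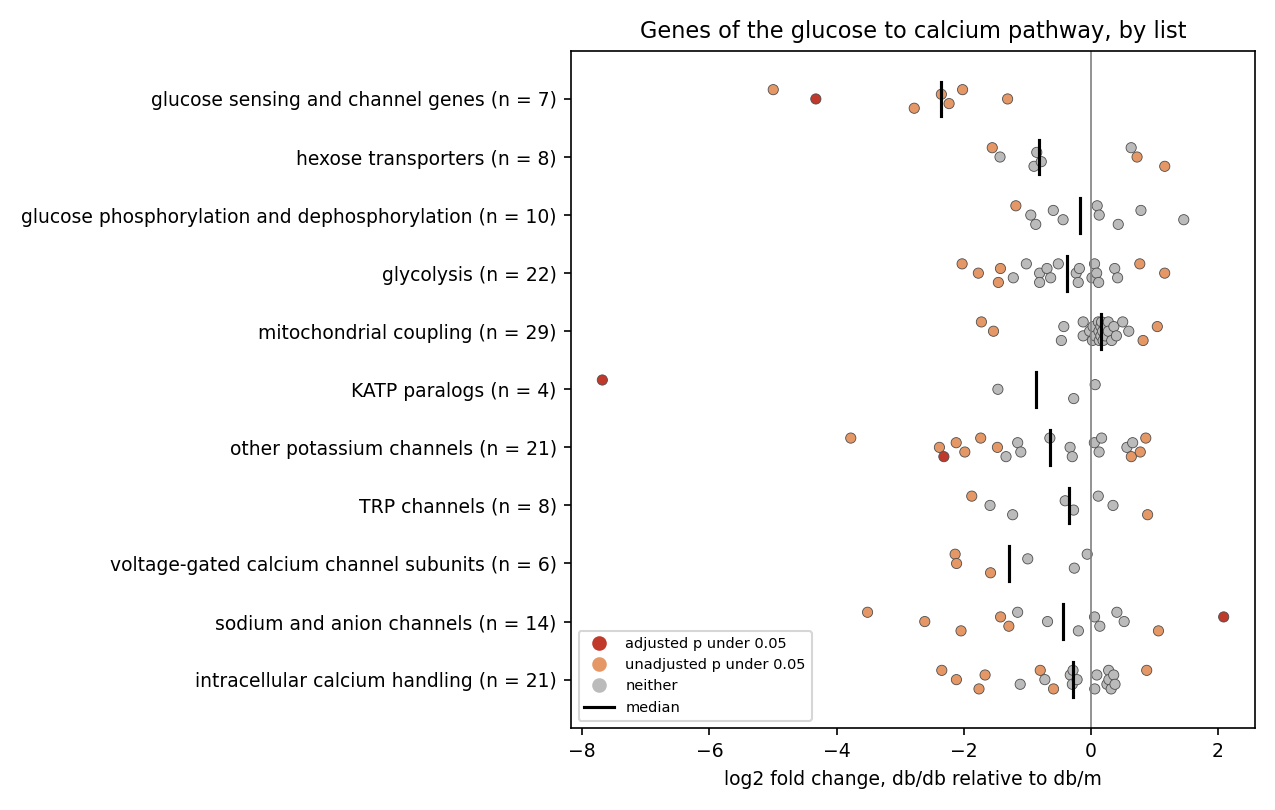
Log2 fold change in db/db relative to db/m islets for the tested genes of each list, 1 point a gene, with vertical bars at the median of each list. Red points have an adjusted p under 0.05, orange points an unadjusted p under 0.05 and grey points neither. The 7 glucose sensing and channel genes lie between -5.00 and -1.31, while the median of mitochondrial coupling genes is 0.16.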

How the data were processed

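RNA-seq counts of islets of 3 db/db and 3 db/m mice were analysed. The authors cleaned reads of adaptors, N bases and low-quality reads, mapped them to mm10 and deposited raw counts per gene symbol for each mouse. The methods of the study name TopHat, and the processing notes of the submitters name HISAT2 2.0.4. The counting program, annotation and strand setting are not given in the sources used here. Nothing states that libraries come from more than 1 preparation per mouse, and p-values measure the spread between these samples.

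Counts were tested in R 4.3.3 with edgeR 4.0.16, by its quasi-likelihood test after TMM scaling and the filterByExpr filter. P-values of the 12760 remaining genes were adjusted together (Benjamini-Hochberg), and genes under 0.05 were called. The standard error (SE) of a log2 fold change is its absolute value over the root of the F statistic. DESeq2 1.42.0, other scalings and filters, a replicate block, 2 covariates and leaving out each mouse were alternatives. The scores used as covariates are means of log2(CPM + 1). Single values were compared by exact permutation tests over mice (scipy 1.17.1). The smallest count a library was taken to show was 3, which covers counting error alone. No libraries of a group agreed within sampling noise, the chi-square between them being 26.5 to 147 times its degrees of freedom. The steps were tested on simulated counts that had the same dispersion for every gene and no difference in cell mix. This checks that the steps run as meant, and not how they hold for libraries such as these.

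The 7 genes, the lists and the ratios were chosen with earlier results of these data known. Genes named besides them were the partners of the ratios, in each list the genes with an adjusted p under 0.05 or else up to 3 with the smallest unadjusted p under 0.05, and 5 genes by likeness of pattern. The results of some single genes that this rule names are not reported here. Kcnj8, Abcc9, Lepr and Chdh were named outside this rule, after their values were seen. Gene positions and exon lengths were taken from RefSeq on GRCm38.p6, and shared 50-base stretches from GENCODE transcripts.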

Additional observations from a re-analysis of the deposited data

How the results depend on the processing

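With few mice, calls at an adjusted p under 0.05 moved more than directions. All log2 fold changes of the 7 genes were below 0 in the 16 alternatives, except that of Cacna1d with libraries scaled to pan-endocrine counts (0.17). Of the 7 genes, 6 were called by DESeq2 and 7 with no filter on low counts, but 0 with library size in place of TMM, 0 with the replicate block and 0 with the pan-endocrine score as a covariate. Between 0 and 5 were called with each mouse left out, 5 of them without db/m replicate 3. An unadjusted p under 0.05 was found for 6 to 7 genes with each mouse left out, for 5 with either covariate, and for 2 with libraries scaled to pan-endocrine counts. The share of all tested genes with such a p was not taken in these fits. The median log2 fold change of the 7 genes was -0.98 with that scaling, -0.97 with the acinar score and -0.89 with the pan-endocrine score, and lay between -2.90 and -1.61 with each mouse left out. With library size it was -3.07, against -0.59 for all tested genes. Of the pathway genes, 23 were called by DESeq2, 29 with no filter, and 1 each with library size, upper-quartile factors, pan-endocrine scaling, the replicate block and either covariate. With each mouse left out the range was 1 to 10. Of all genes, 707 of 12760 tested were called by DESeq2 and 888 of 23506 tested with no filter. Again of 12760 tested, 21 were called with library size, 52 with upper-quartile factors, 16 with the replicate block and 35 with the pan-endocrine score. Leaving out each mouse gave 10 to 333 called genes, of 12984 to 13735 tested. With pan-endocrine scaling 23 of 111 called genes were lower in db/db islets, against 62 of 79 with TMM. For all these moves the cause was not tested. Per pan-endocrine count, Cacna1d lay between -0.47 and 0.27 with each mouse left out, below 0 without db/db replicate 1 (-0.47) or db/m replicate 1 (-0.22). Against β-cell markers the values of Kcnj11 (0.24), Abcc8 (0.49) and Cacna1c (0.10) turned. The other ratios kept their direction. Nothing states that same-numbered mice were pairs, and their deviations from the group means correlated between -0.51 and -0.15 across genes, so the replicate block is given as an alternative alone.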
